A study of Homo sapiens with 12 samples.

Results

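Small nucleolar RNA (snoRNA) host genes are transcribed to carry snoRNAs in their introns, and 10 of them that make long noncoding transcripts are described here: GAS5, SNHG1, SNHG3, SNHG5, SNHG6, SNHG7, SNHG8, SNHG12, SNHG15 and ZFAS1. They were found by an exact match of their symbols and make up 10 of the 44147 genes and other features used. The libraries came from CCRF-CEM, an established line of T lymphoblast leukemia, grown either as the unedited parent or as a derived line with SLFN11 knocked out. The SLFN11 protein is known to act at stressed replication forks. Each line received either DMSO, for a time the labels do not give, or 100 nM of the CHK1 kinase inhibitor prexasertib for 6 h, and 3 libraries were made for each of the 4 groups. Both lines were kept in RPMI1640 with fetal bovine serum. The labels do not say how many knockout clones were used or whether replicate libraries stem from separate cultures, so the adjusted p-values describe the spread among libraries, which could be technical.

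Treatment is uncertain by label. All 12 records carry a library name that belongs to a file of the other treatment in the same line. Groups here follow the records ("labelled prexasertib", "labelled DMSO"). If the library names are right instead, every treatment difference below, and every difference of treatment effects between lines, keeps its size and changes sign, and the 2 comparisons between lines trade places. Exonic reads summed to between 47887791 and 77548202 per library. Intronic reads made up 30.27% of exonic and intronic reads in the first parent library labelled prexasertib and 23.93% to 26.37% in the other 11, so counts are also given without that library where they move. SLFN11 itself was read at 91.2 to 100.4 CPM (exonic reads scaled to library size) in the parent libraries labelled DMSO and 117 to 119 in those labelled prexasertib, against 65.9 to 69.1 and 85.0 to 90.7 in the knockout line. The labels do not say what the edit removed, so these reads do not check the knockout label. All 10 T lymphoblast markers examined, CD3E and LCK among them, were at 1 CPM or more, and their sum lay between 1280 and 1670 CPM. Of 5 markers each, B-cell markers reached 1 CPM in 2 (CD79A, CD79B), epithelial markers in 2 (EPCAM, KRT8), and myeloid, fibroblast and erythroid markers in 0.

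In a host gene, the introns are the part with the known product. After splicing, the intron is trimmed to a snoRNA, which joins a protein complex and guides chemical modification or cleavage of ribosomal RNA. The spliced exons often have no conserved reading frame. Many such exonic RNAs are degraded while being translated, by the nonsense-mediated decay pathway, and many host genes start transcription at a terminal oligopyrimidine (TOP) sequence, the start signal also used by ribosomal protein genes. GAS5 takes its name from its accumulation in growth-arrested cells, where it is a known case of both features. Reads wholly in exons and reads wholly in introns would therefore describe different RNAs of a host gene. The counts used here do not keep them fully apart, since some reads count as both. Such reads came to at least 97.9% of the intronic reads of SNHG1 but 3.53% in SNHG5.

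Of the hosts, 8 have a start site in the RefSeq promoter table (build GRCh38.p14). To show what these start sites have in common, a run of at least 5 pyrimidines (C or T) that opens with C within 5 bases of the annotated start was searched on the transcribed strand. Such a run was found in 5 of the 8 hosts, in 51 of 63 ribosomal protein genes that have an entry, and in 21.1% of all 35116 promoters. The letters TATAA, searched on the same strand in the 40 bases before the start, were in 5 of the 8 hosts, in 6 of the 63 ribosomal protein genes and in 4.34% of all promoters. The same 5 hosts had the run and TATAA, and GAS5, SNHG1 and SNHG3 had neither. The start sites of the 4 hosts with the largest fall of exonic reads in parent cells are printed as 60 bases, of which 35 precede the annotated start. Capitals mark the pyrimidine run where the search found one. A match is no proof of use, and the absence of a match speaks only of the annotated start.
ZFAS1, chr20:49278607-49278666, plus strand: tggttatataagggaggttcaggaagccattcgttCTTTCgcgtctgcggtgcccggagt
SNHG1, chr11:62855861-62855920, minus strand: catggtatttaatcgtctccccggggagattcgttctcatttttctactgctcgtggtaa
SNHG12, chr1:28581849-28581908, minus strand: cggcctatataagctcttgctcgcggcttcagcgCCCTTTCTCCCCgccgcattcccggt
SNHG5, chr6:85678709-85678768, minus strand: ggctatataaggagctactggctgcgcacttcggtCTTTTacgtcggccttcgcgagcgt

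The files list 7 snoRNA features inside 5 of the hosts. The 3 in ZFAS1 and the 1 in SNHG3 are printed, because ZFAS1 had the largest change of intronic against exonic reads and SNORA73B holds most intronic reads of SNHG3. Sequences are from GENCODE v29, and positions are those of the files in hg19. In the ZFAS1 snoRNAs, which are of the box C/D class that guides ribose methylation, capitals mark box C (TGATGA) and box D (CTGA). In SNORA73B, of the box H/ACA class, they mark the ACA box 3 bases from the end.
SNORD12, chr20:47897220-47897309: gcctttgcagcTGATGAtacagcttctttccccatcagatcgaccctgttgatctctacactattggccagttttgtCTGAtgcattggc
SNORD12B, chr20:47896856-47896946: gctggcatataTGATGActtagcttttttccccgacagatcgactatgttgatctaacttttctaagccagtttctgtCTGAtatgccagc
SNORD12C, chr20:47895477-47895565: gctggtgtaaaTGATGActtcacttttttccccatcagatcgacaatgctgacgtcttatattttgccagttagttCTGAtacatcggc
SNORA73B, chr1:28835071-28835274: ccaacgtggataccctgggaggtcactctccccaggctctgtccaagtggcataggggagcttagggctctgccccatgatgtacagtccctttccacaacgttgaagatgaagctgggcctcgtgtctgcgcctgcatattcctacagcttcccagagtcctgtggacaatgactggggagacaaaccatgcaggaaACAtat
The longest run that the ZFAS1 snoRNAs share letter for letter is the 9 bases CAGATCGAC, between the boxes.

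All 10 hosts were well covered, with a lowest exonic count of 2904 reads (SNHG6) in any library, and all passed the filter on low counts for exonic reads, intronic reads and their ratio. Per length, on the authors' exonic TPM scale, SNHG3 had the highest mean level over the 12 libraries (191, range 151 to 258). SNHG8 (131, range 104 to 164) and ZFAS1 (106, range 80.8 to 167) followed. GAS5 (62.8), SNHG1 (62.6), SNHG6 (56.9) and SNHG5 (51.5) had overlapping ranges. SNHG15 (32.4), SNHG12 (25.3) and SNHG7 (21.7) were lowest. Ranges of neighbours in this order overlapped, except between ZFAS1 and GAS5 (highest 70.4) and between SNHG5 (lowest 43.8) and SNHG15 (highest 41.5).

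In parent cells, exonic reads of 9 of the 10 hosts fell in the libraries labelled prexasertib, and none rose. ZFAS1 fell most, by 0.98 on the log2 scale (standard error 0.05, adjusted p = 3.6e-14), and SNHG1 fell by 0.87 (0.06, 4.5e-11). SNHG12 fell by 0.60 (0.06, 4.6e-09), SNHG5 by 0.58 (0.05, 3.3e-09) and SNHG15 by 0.52 (0.05, 2.4e-08). GAS5 fell by 0.42 (0.05, 5.9e-07), SNHG8 by 0.39 (0.06, 4.1e-06), SNHG7 by 0.35 (0.06, 2.4e-05) and SNHG6 by 0.29 (0.06, 0.00029). SNHG3 had a log2 change of 0.06 (0.07, 0.56). The median log2 change of the hosts was -0.47, against 0.04 over the 23045 genes tested, of which 18.2% were called lower and 18.2% higher. Calls are at an adjusted p of at most 0.05 in edgeR's quasi-likelihood test over all genes tested, and DESeq2 and an unadjusted p under 0.05 both also gave 9 lower and 0 higher. In whole cultures, less RNA per cell and fewer cells of a kind cannot be told apart.

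The values behind these calls show groups that do not overlap. ZFAS1 (chr20:47894715-47905797 in hg19), antisense to the start of ZNFX1, was at 168, 158 and 170 CPM of exonic reads in the parent libraries labelled DMSO. In the 3 labelled prexasertib it was at 81.3, 87.2 and 84.0 CPM. SNHG1 (chr11:62619460-62623386) was at 335, 311 and 330 CPM against 157, 190 and 186 CPM. For both genes the lowest library labelled DMSO stood well above the highest labelled prexasertib. SNHG12 (chr1:28905050-28909495) was at 95.5, 92.7 and 96.4 CPM against 56.7, 66.7 and 64.5. SNHG5 (chr6:86370710-86388451) was at 135, 129 and 132 CPM against 81.6, 96.1 and 87.3. GAS5 (chr1:173833038-173838020) was at 234, 231 and 239 CPM against 158, 183 and 184. In these 5 genes the first library labelled prexasertib, the one with the high intronic share, was the lowest of its group. Without it the count stayed at 9 lower.

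SNHG15 (chr7:45022622-45026560) was at 138, 145 and 145 CPM in parent libraries labelled DMSO and at 90.5, 106 and 102 in those labelled prexasertib. SNHG8 (chr4:119199864-119200978), the shortest of the hosts, was at 137, 141 and 149 CPM against 97.4, 113 and 116. SNHG7 (chr9:139615818-139622636) was at 86.2, 94.2 and 95.8 CPM against 66.3, 75.3 and 75.7. SNHG6, on chromosome 8, was at 78.8, 75.0 and 77.8 CPM against 56.2, 67.9 and 64.9. The groups of these 4 genes did not overlap either, and the same library was again the lowest. How many of all genes have parent groups without overlap was not counted, so the lack of overlap only describes these values. SNHG3 (chr1:28832492-28837404), host of the pre-rRNA processing snoRNA SNORA73B, was at 727, 816 and 833 CPM against 885, 846 and 739, and its groups overlapped.

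**Figure D1:**
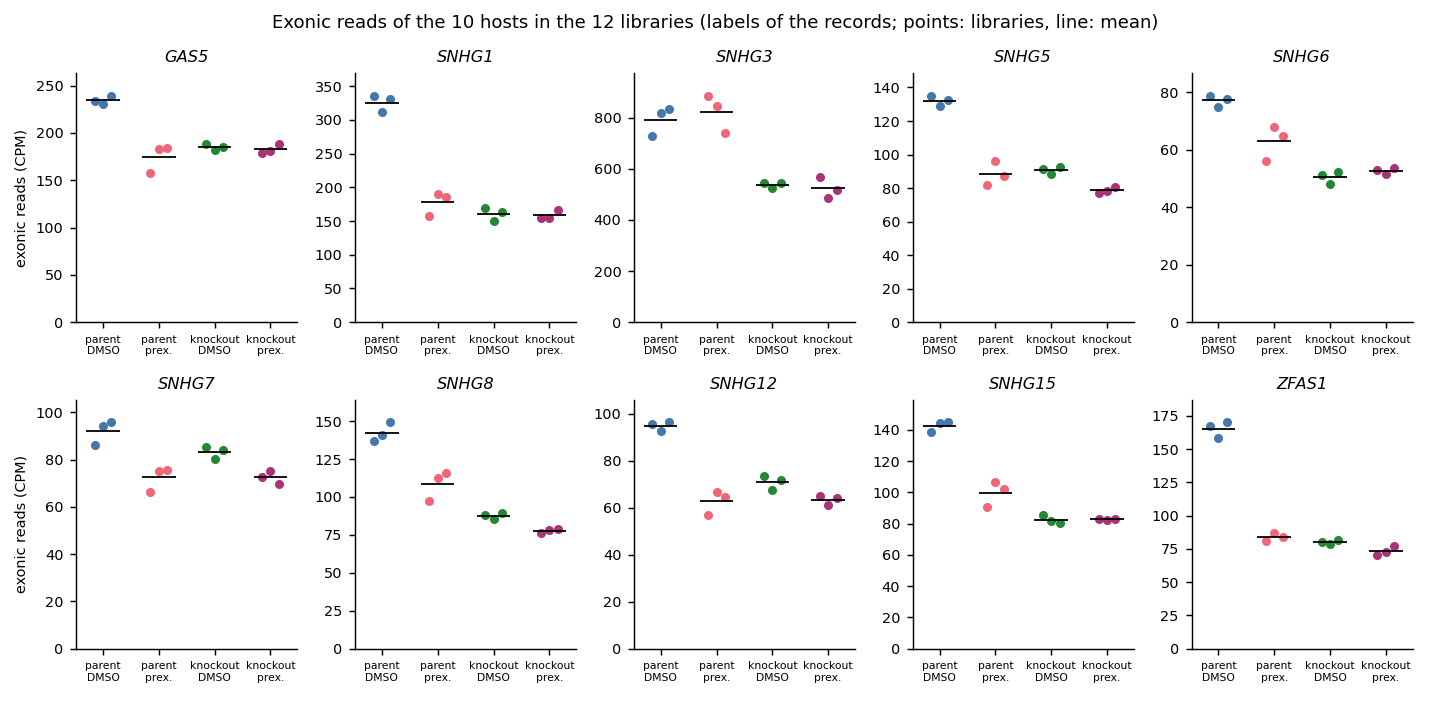
Exonic reads (CPM, y axis from 0) of each host in the 12 libraries by record label, with points for libraries and a line for the mean of 3. In ZFAS1 the parent libraries labelled DMSO sit at 158 to 170 CPM and the other 9 at 70.5 to 87.2; in SNHG3 the 2 parent groups overlap.

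In knockout cells fewer hosts were called in the same comparison. Exonic reads of 3 hosts fell: SNHG5 by 0.20 (0.05, adjusted p = 0.013), SNHG7 by 0.20 (0.06, 0.021) and SNHG8 by 0.17 (0.06, 0.044). None rose, and the median of the hosts was -0.08 against 0 over all genes, of which 6.83% were called lower and 6.11% higher. DESeq2 also called 3 lower and 0 higher, and at an unadjusted p under 0.05 the counts were 5 and 0. SNHG5 was at 91.2, 88.2 and 92.8 CPM in the knockout libraries labelled DMSO and at 76.9, 78.6 and 80.9 in those labelled prexasertib. ZFAS1 was at 79.9, 78.4 and 81.8 against 70.5, 72.7 and 77.3 CPM, a log2 change of -0.12 (0.05, 0.12). SNHG1 was at 170, 150 and 163 against 155, 155 and 167 CPM, a log2 change of -0.02 (0.06, 0.90). GAS5 had a log2 change of -0.02 (0.05, 0.88), SNHG15 of 0.00 (0.05, 0.98), SNHG6 of 0.06 (0.06, 0.61), SNHG3 of -0.04 (0.07, 0.78) and SNHG12 of -0.16 (0.06, 0.068). The count of 3 was not stable: it was 0 without the third knockout library labelled DMSO or without the first labelled prexasertib. It was 1 without the first labelled DMSO or without the third labelled prexasertib, and 5 without the first parent library labelled prexasertib or when only the knockout libraries were fitted.

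The difference between the lines in the labelled prexasertib effect was tested as an interaction. It was called for 7 hosts, each with the lower log2 change in parent cells: SNHG1 (-0.85 on the log2 scale, standard error 0.09, adjusted p = 1.6e-07), ZFAS1 (-0.85, 0.07, 3.2e-09), SNHG15 (-0.52, 0.08, 2.2e-05), SNHG12 (-0.44, 0.08, 0.00033), GAS5 (-0.40, 0.08, 0.00044), SNHG5 (-0.38, 0.08, 0.001) and SNHG6 (-0.35, 0.08, 0.004). It was not called for SNHG8 (-0.22, 0.08, 0.069), SNHG7 (-0.15, 0.08, 0.24) or SNHG3 (0.10, 0.09, 0.55). Over all genes, 9.53% were called with the lower effect in parent cells and 7.32% with the higher. DESeq2 and an unadjusted p under 0.05 both gave 8 hosts lower and 0 higher. On the authors' whole-gene TPM, which includes intronic reads, 2 hosts were called and ZFAS1 was at -0.07 (adjusted p = 0.62). On their exonic TPM ZFAS1 was at -0.72 (0.00027).

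Knockout and parent cells already differed under labelled DMSO. All 10 hosts were lower in the knockout line, with a median log2 difference of -0.58 against -0.01 over all genes, of which 20.4% were called lower and 19.6% higher. ZFAS1 was lower by a log2 difference of -1.05 (0.05, adjusted p = 1.1e-14) and SNHG1 by one of -1.02 (0.06, 2.6e-12). SNHG15 (-0.79, 0.05, 9.7e-12), SNHG8 (-0.70, 0.06, 2e-10), SNHG6 (-0.61, 0.06, 4.9e-09) and SNHG3 (-0.56, 0.07, 3.4e-07) followed. SNHG5 (-0.54, 0.05, 8.6e-09), SNHG12 (-0.42, 0.06, 1.2e-06) and GAS5 (-0.34, 0.05, 1.2e-05) came next, and SNHG7 had the smallest difference (-0.15, 0.06, 0.042). DESeq2 and an unadjusted p under 0.05 both gave 10 lower and 0 higher. SNHG3, which was not called by labelled treatment in either line, was at 545, 524 and 546 CPM in the knockout libraries labelled DMSO and at 567, 486 and 517 in those labelled prexasertib, below every parent library. This comparison shares the parent libraries labelled DMSO with the treatment comparison in parent cells, so the likeness of their lists is not separate evidence. On the authors' whole-gene TPM, where the median of all genes itself moved to 0.14, only 4 hosts were called lower, SNHG7 turned to 0.20 and was called higher, and GAS5 was at 0.00. On their exonic TPM SNHG7 was at 0.13. The call of SNHG7 was lost in 7 more of the 23 alternatives, among them leaving out parent library 2 or 3 or knockout library 2 or 3 labelled DMSO.

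Under labelled prexasertib 6 hosts were lower in the knockout line and none was higher. SNHG3 (-0.65, 0.07, adjusted p = 6.7e-08), SNHG8 (-0.48, 0.06, 3.4e-07), SNHG15 (-0.27, 0.05, 0.00048) and SNHG6 (-0.26, 0.06, 0.0018) had the larger differences. ZFAS1 (-0.20, 0.05, 0.005) and SNHG5 (-0.17, 0.05, 0.025) had the smaller ones. SNHG1 had a log2 difference of -0.16 (0.06, 0.058), GAS5 of 0.06 (0.05, 0.44), SNHG12 of 0.02 (0.06, 0.85) and SNHG7 of 0.00 (0.06, 1). Over all genes, 13.5% were called lower and 14.5% higher. DESeq2 gave 6 lower and 0 higher, and an unadjusted p under 0.05 gave 7 and 0. On the authors' exonic TPM, 2 hosts were called lower and 3 higher. Summed without SNHG3, the hosts were at 1376 to 1436 CPM in parent libraries labelled DMSO, at 845 to 985 in parent libraries labelled prexasertib, at 862 to 912 in knockout libraries labelled DMSO and at 830 to 863 in those labelled prexasertib. Without SNHG3 the first of these groups was thus apart from the other 3 groups, which overlapped in part. With SNHG3 included, the sums were 2134 to 2269, 1704 to 1831, 1386 to 1457 and 1320 to 1397 CPM in the same order. The parent libraries labelled prexasertib then also lay above all knockout libraries.

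**Figure D2:**
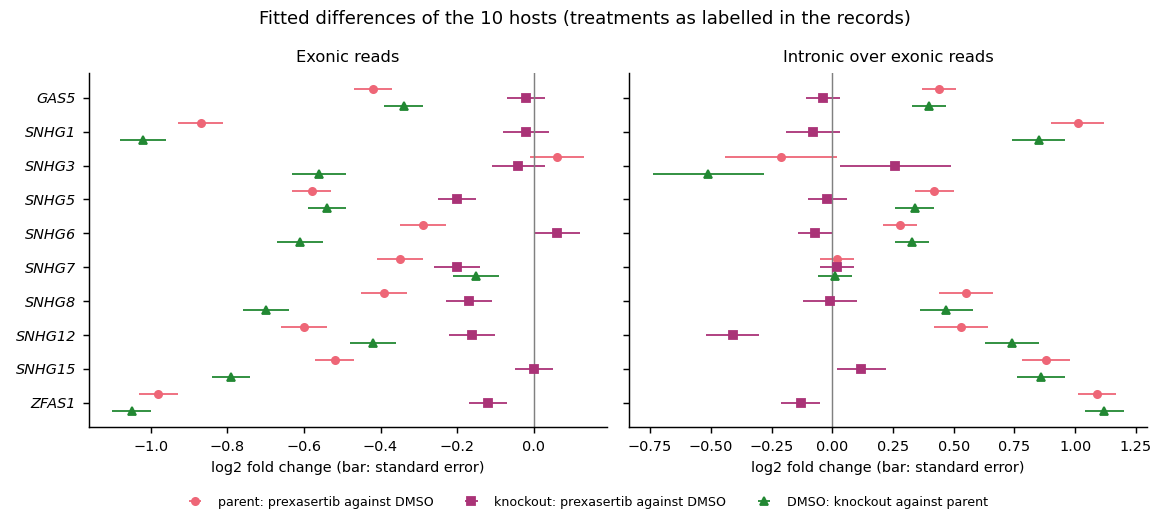
Log2 fold changes with standard errors (x axis) of the 10 hosts for exonic reads (left) and for the ratio of intronic to exonic reads (right), by comparison. For ZFAS1 the exonic change is -0.98 and the change of the ratio 1.09 in parent cells, while knockout cells lie at -0.12 and -0.13.

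Fewer hosts were called in intronic reads than in exonic reads. With intronic reads scaled to each other, 2 hosts fell in parent cells, SNHG7 by 0.53 (0.10, adjusted p = 0.00035) and SNHG5 by 0.37 (0.07, 0.00039), and none rose. Over the 19852 genes tested, 15.6% were called lower and 30.8% in either direction, so the share of hosts was near that of all genes. The log2 change of intronic reads was -0.10 (0.06, 0.29) for ZFAS1, -0.05 (0.16, 0.84) for SNHG1, -0.17 (0.11, 0.28) for GAS5, -0.28 (0.11, 0.051) for SNHG12, 0.18 (0.14, 0.36) for SNHG15, -0.21 (0.10, 0.11) for SNHG6 and -0.04 (0.12, 0.83) for SNHG8. In knockout cells SNHG12 fell by 0.56 (0.11, 0.0012) and ZFAS1 by 0.25 (0.06, 0.015), with 6.15% of all genes called lower and 5.83% higher. Between the lines under labelled DMSO, SNHG3 (-1.25, 0.37, 0.035), SNHG6 (-0.37, 0.10, 0.0049) and SNHG5 (-0.30, 0.07, 0.0027) were lower, with 16% of all genes called lower and 30.3% in either direction; the call of SNHG3 was lost in 7 of 16 alternatives. Under labelled prexasertib SNHG8 (-0.45, 0.13, 0.017) was lower, with 9.16% and 9.62% of all genes called lower and higher. The interaction was called for 0 hosts by edgeR's test of intronic reads (5.82% of all genes lower, 4.02% higher), and 1 had an unadjusted p under 0.05. At an unadjusted p under 0.05 no host rose in intronic reads by treatment, and 4 fell in parent cells and 3 in knockout cells. Intronic counts of some hosts were low, with 223 to 446 reads per library in SNHG8 and 234 to 439 in SNHG1.

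Libraries bear on these intronic counts. Without the first parent library labelled prexasertib, the intronic counts became 1 higher and 2 lower for parent cells, 0 and 4 for knockout cells, 1 and 5 between lines under labelled DMSO, and 0 and 5 under labelled prexasertib. Without the second, 4 hosts fell in parent cells and 0 were lower in the knockout line under labelled prexasertib, a count that was also 0 without the second knockout library labelled prexasertib. Leaving out any one of the 6 knockout libraries left 1 lower host in knockout cells. With exonic library sizes in place of intronic ones, parent cells had 1 host higher and 1 lower, and ZFAS1 turned to 0.11, SNHG1 to 0.13, SNHG8 to 0.15 and GAS5 to 0.02.

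The ratio of intronic to exonic reads, tested within libraries, rose for 8 of the 10 hosts in parent cells. Exonic reads are its denominator, so these rises are not separate from the falls of exonic reads. ZFAS1 rose by a log2 ratio of 1.09 (0.08, adjusted p = 1.3e-06), SNHG1 by 1.01 (0.11, 5e-05), SNHG15 by 0.88 (0.10, 5.8e-05), SNHG8 by 0.55 (0.11, 0.0031), SNHG12 by 0.53 (0.11, 0.0031), GAS5 by 0.44 (0.07, 0.00086), SNHG5 by 0.42 (0.08, 0.0026) and SNHG6 by 0.28 (0.07, 0.012). SNHG7 (0.02, 0.07, 0.90) and SNHG3 (-0.21, 0.23, 0.55) were not called. The whole table moved in the same direction: the median over the 17090 genes tested was 0.21, against 0.48 for the hosts. Of these genes, 23.5% were called higher and 1.8% lower. Without the first parent library labelled prexasertib the median over all genes was 0.13. Relative to the shift of the whole table, with intronic columns given scaling factors of their own, 6 hosts were called higher. ZFAS1 (0.86) and SNHG1 (0.79) came first. GAS5 (0.22, adjusted p = 0.084) and SNHG6 (0.06, 0.62) were then not called, SNHG7 was at -0.21 (0.063), and 1903 genes were called higher and 1359 lower in place of 4013 and 308.

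As a share of its exonic and intronic reads, the intronic reads of ZFAS1 were 44.8%, 43.4% and 42.9% in the parent libraries labelled DMSO. They were 64.2%, 60.9% and 61.7% in parent libraries labelled prexasertib, 63.3%, 63.5% and 61.7% in knockout libraries labelled DMSO and 61.7%, 60.3% and 60.0% in those labelled prexasertib. The 3 first libraries stood apart from the other 9, whose groups overlapped. SNHG1 had 1.82%, 1.42% and 1.71% intronic reads in the parent libraries labelled DMSO and 2.56% to 3.55% in the other 9. SNHG15 had 4.64%, 4.29% and 4.30% against 7.12% to 9%. SNHG7 had 26.4% to 27.1% in parent libraries labelled DMSO and 26.2% to 27.6% in the rest, with no separation. In each host and all 12 libraries, exonic and intronic reads summed to more than the deposited total of the gene, so some reads count as both. Over the 12 libraries such reads came to at least 97.9% of the intronic reads of SNHG1, 77.1% in SNHG8, 71.5% in GAS5, 66.9% in SNHG7 and 62.1% in SNHG15. In SNHG6 (28.7%), SNHG3 (25.7%), SNHG12 (18.1%), ZFAS1 (10.8%) and SNHG5 (3.53%) they were fewer. The intronic values of SNHG1 thus describe almost entirely reads that also touch an exon. Exons of all isoforms together cover 96.6% of SNHG1 and 92.6% of SNHG15 but 9.9% of ZFAS1, so the intronic part of the first pair is small (135 and 292 bases).

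**Figure D3:**
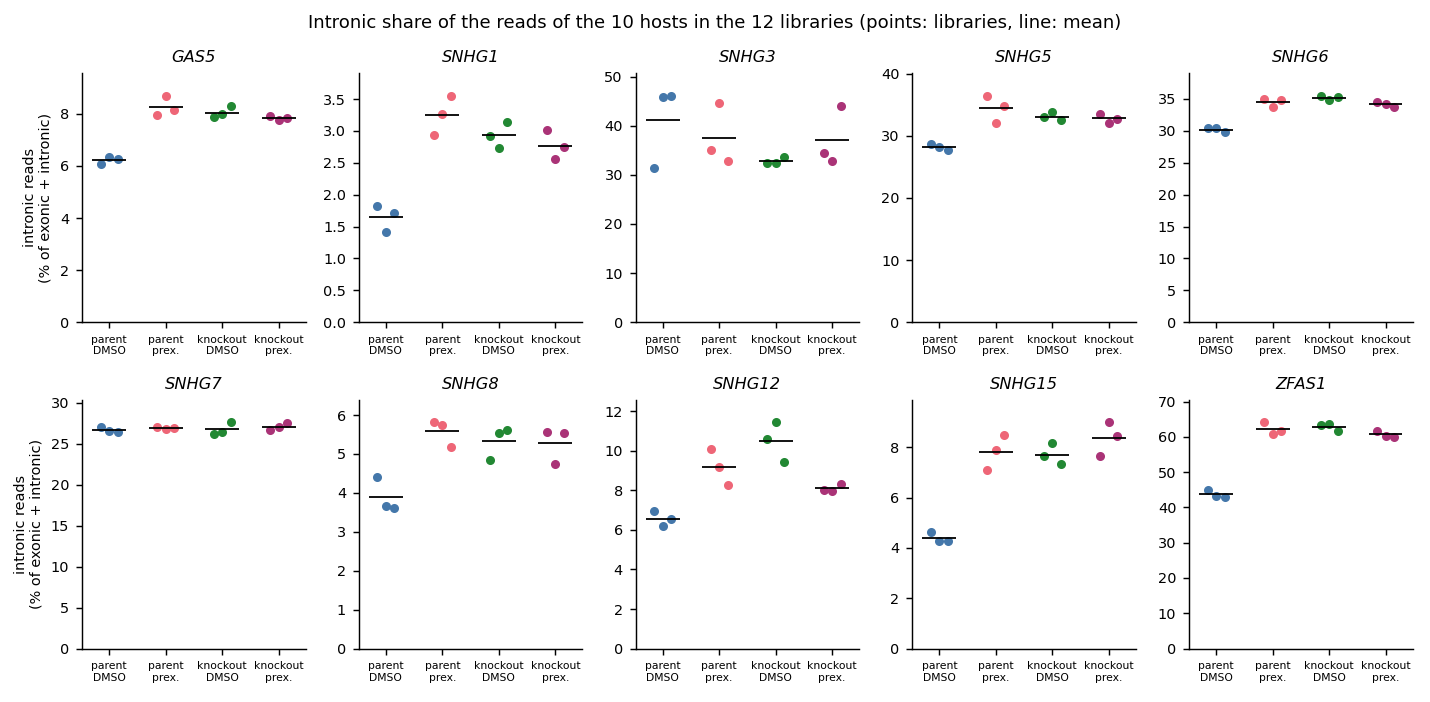
Intronic reads as a percentage of exonic and intronic reads (y axis from 0) of each host in the 12 libraries by record label, with points for libraries and a line for the mean of 3. ZFAS1 lies at 42.9% to 44.8% in parent libraries labelled DMSO and at 60.0% to 64.2% elsewhere; SNHG7 is level; SNHG3 has 4 libraries above the rest.

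In knockout cells the ratio was called for none of the hosts by edgeR's test. One, SNHG12 with a log2 ratio of -0.41 (0.11, adjusted p = 0.085), had an unadjusted p under 0.05, and it was called lower without the first parent library labelled prexasertib. The median was -0.03, and 0.486% of all genes were called higher and 0.749% lower. Between the lines under labelled DMSO, 8 hosts had the higher ratio in knockout cells: ZFAS1 (1.12, 0.08, 1.9e-06), SNHG15 (0.86, 0.10, 8.9e-05), SNHG1 (0.85, 0.11, 2e-04), SNHG12 (0.74, 0.11, 0.00034), SNHG8 (0.47, 0.11, 0.01), GAS5 (0.40, 0.07, 0.0019), SNHG5 (0.34, 0.08, 0.012) and SNHG6 (0.33, 0.07, 0.0071). SNHG7 (0.01, 0.07, 0.98) and SNHG3 (-0.51, 0.23, 0.16) were not called, and over all genes the median was 0.09, with 12.3% called higher and 3.45% lower. Under labelled prexasertib none differed (at an unadjusted p under 0.05 also 0). The median was -0.08 against -0.11 over all genes, of which 1% were called higher and 3.84% lower. Without the first parent library labelled prexasertib the median over all genes was -0.03.

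The treatment effect on the ratio differed between the lines for 7 hosts, each with the higher log2 change in parent cells: ZFAS1 (1.22, 0.11, adjusted p = 9.7e-05), SNHG1 (1.09, 0.16, 0.0022), SNHG12 (0.93, 0.15, 0.0038), SNHG15 (0.75, 0.14, 0.0072), SNHG8 (0.56, 0.16, 0.044), GAS5 (0.48, 0.10, 0.014) and SNHG5 (0.44, 0.12, 0.034). Their log2 changes in knockout cells ran from -0.41 (SNHG12) to 0.12 (SNHG15), and none was called there. SNHG6 (0.35, 0.10, 0.052), SNHG7 (0.00, 0.10, 0.99) and SNHG3 (-0.48, 0.33, 0.40) were not called. Over all genes the median was 0.20, with 8.31% called higher and 0.445% lower. Without the first parent library labelled prexasertib that median was 0.12. With intronic columns given scaling factors of their own, 3 hosts were called (ZFAS1 0.98, SNHG1 0.86, SNHG12 0.70). Of 15 alternatives, the call of SNHG8 was lost in 10 and that of SNHG5 in 9, most of them with a single library left out.

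SNHG3 needs separate treatment. It lies wholly within the span of RCC1, a nuclear exchange factor gene, so 0 of its reads were unique to it. RCC1 had log2 changes of 0.03 (0.06, adjusted p = 0.79) in parent cells and -0.06 (0.06, 0.49) between lines under labelled DMSO. Reads of SNORA73B made up 88.0% to 92.7% of the intronic reads of SNHG3 in 8 libraries, and 50.1% to 50.9% in the other 4. Those 4 were parent libraries 2 and 3 labelled DMSO, parent library 2 labelled prexasertib and knockout library 3 labelled prexasertib. Intronic reads outside SNORA73B were at 199 to 355 CPM in these 4 and at 20.2 to 39.5 CPM in the other 8. In the second parent library labelled DMSO, for example, 23638 reads of SNORA73B stood beside 23565 other intronic reads. This split runs across groups and does not follow the labels. What made it was not tested, and the intronic values of SNHG3 above carry it.

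**Figure D4:**
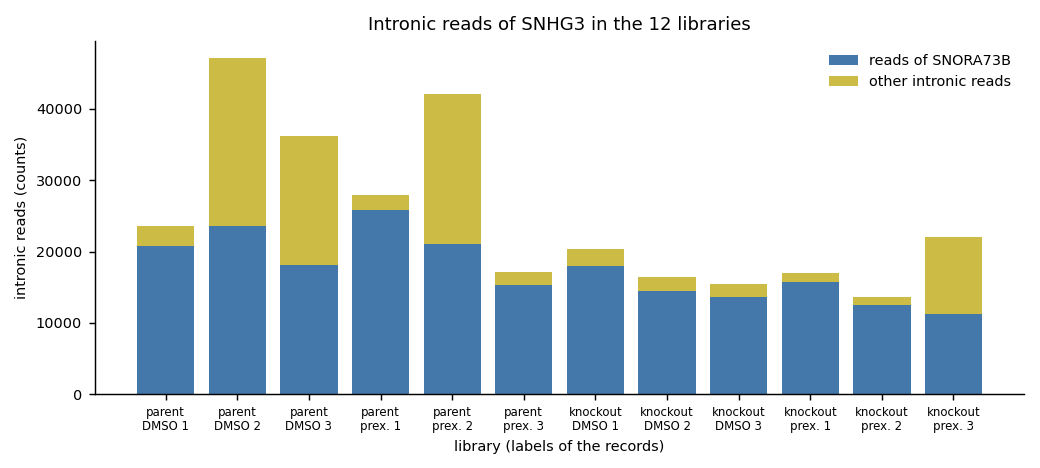
Intronic reads of SNHG3 (counts, y axis) in the 12 libraries, divided into reads of SNORA73B (lower part of each bar) and all other intronic reads (upper part). In 4 libraries the upper part is about as tall as the lower, and in the other 8 it is small.

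The snoRNA features themselves were mostly not called. Reads that lie in a snoRNA cannot be told apart from those of the unspliced host, and except for SNORA73B, at a mean of 292 CPM, they were few (1.65 to 4.69 CPM on average). In parent cells 1 of the 7 rose and 1 fell, beside 18.2% of all features in each direction. SNORD78 in GAS5 was at 2.32, 2.09 and 2.06 CPM against 2.52, 3.07 and 2.88 (0.38, 0.15, adjusted p = 0.046). SNORD12C in ZFAS1, named beyond the rule because of its calls, was at 4.76, 4.05 and 5.07 CPM against 3.08, 4.01 and 3.37 (-0.40, 0.14, 0.03). SNORD12B, the most abundant in ZFAS1, had a log2 change of -0.07 (0.12, 0.70), SNORD87 in SNHG6 of 0.01 (0.15, 0.98), SNORD99 in SNHG12 of -0.19 (0.21, 0.52) and SNORA73B of 0.16 (0.15, 0.46). In knockout cells SNORD12B fell by 0.40 (0.12, 0.029) and SNORD12C by 0.51 (0.15, 0.022), beside 6.83% of all features lower. SNORA73B was lower in the knockout line under labelled DMSO (-0.52, 0.15, 0.021) and labelled prexasertib (-0.67, 0.15, 0.009), and SNORD12C was lower under labelled prexasertib (-0.42, 0.15, 0.037), beside 20.4% and 13.5% of all features lower. SNORA73B was at 294 to 356 CPM in parent libraries labelled DMSO and 221 to 246 CPM in knockout libraries labelled DMSO, with no overlap. The interaction was called for 0 of the 7 by edgeR, and 1, SNORD12 (also named after its values were seen), had an unadjusted p under 0.05. Of the 21 alternatives run, the call of SNORD78 was lost in 15. That of SNORD12C was lost in 6 (parent), 5 (knockout) and 9 (lines under labelled prexasertib), that of SNORD12B in 6, and that of SNORA73B in 6 (labelled DMSO) and 1 (labelled prexasertib).

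Other genes that overlap a host took part of the reads of only some. Reads in regions that no other gene covers were 98.5% of the exonic reads of SNHG6, 91.7% of those of SNHG7 and 99.8% or more in the rest, apart from SNHG3. With these reads alone, the same 9 hosts fell in parent cells. MCMDC2, which shares bases with SNHG6, also fell in parent cells (-0.25, 0.07, adjusted p = 0.0044). ZNFX1, which overlaps ZFAS1, had a log2 change of -0.09 (0.05, 0.13). The strand setting of the counts is unknown, so reads of an overlapped stretch cannot be assigned to either gene. TRNAU1AP beside SNHG12 rose by 0.23 (0.07, 0.013), against the direction of SNHG12. FAM69B, which overlaps SNHG7, had a log2 change of 0.19 (0.09, 0.11) in parent cells. Between the lines under labelled DMSO it was higher in knockout cells (0.38, 0.09, 0.0012), where SNHG7 was lower. ZBTB37, which overlaps GAS5, had a log2 change of 0 (0.06, 0.98) in parent cells.

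Among 7 further noncoding snoRNA hosts that could be tested, 2 fell and 1 rose in parent cells, with a median of -0.04. The list counts in parent cells stand beside 18.2% of all genes called in each direction. C6orf48, a noncoding host near the MHC class III genes, was at 225, 233 and 238 CPM under labelled DMSO and at 106, 128 and 126 under labelled prexasertib (-0.95, 0.06, adjusted p = 8.6e-13). SNHG11 fell by 0.77 (0.08, 1.1e-08). DANCR, the gene that rose, did so by 0.34 (0.05, 7.8e-06). Of 30 protein-coding hosts other than ribosomal protein genes, 7 rose and 8 fell, with a median of 0.05. HSPA8, the constitutive HSC70 chaperone and a snoRNA host, rose by 0.74 (0.06, 1e-10), from 1497 to 1537 CPM under labelled DMSO to 2268 to 2688 under labelled prexasertib. TNPO2, a nuclear import receptor, fell by 0.56 (0.05, 3.4e-09).

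The 79 cytosolic ribosomal protein genes, which are known for the same kind of start site, gave 6 that rose and 0 that fell, with log2 changes from -0.13 to 0.24 and a median of 0.02. At an unadjusted p under 0.05, 8 were higher and 1 lower in edgeR. RPS15 rose by 0.24 (0.05, adjusted p = 0.001) and RPL6 by 0.22 (0.05, 0.0016). Of 19 snoRNP proteins and assembly factors, 6 rose and 4 fell, with a median of 0.04. DKC1, the pseudouridine synthase of box H/ACA particles, rose by 0.34 (0.05, 1.4e-05), and its assembly chaperone SHQ1 by 0.33 (0.06, 2.4e-05). Of 21 nonsense-mediated decay and linked RNA decay factors, 10 fell and 2 rose, with a median of -0.12. PNRC2, which links UPF1 to decapping, was at 166, 158 and 167 CPM against 82.8, 108 and 101 (-0.75, 0.07, 2.7e-09). SMG9, a partner of the SMG1 kinase, fell by 0.69 (0.06, 5.7e-10). The lists were set beside the hosts by counts only, and some genes, such as DKC1, are in more than 1 list.

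In knockout cells, where 6.11% of all genes were called higher and 6.83% lower against 18.2% each in parent cells, the list counts were also smaller. There, 4 of the 21 decay factors fell and 0 rose, 2 of the 30 protein-coding hosts rose and 1 fell, and 2 of the 19 snoRNP genes rose and 1 fell. Of the ribosomal protein genes 0 were called (1 higher and 1 lower at an unadjusted p under 0.05 in edgeR), and of the further noncoding hosts 0 (also 0 at an unadjusted p). In the interaction 8 decay factors had the lower effect in parent cells and 1 the higher, against 1 higher and 0 lower for ribosomal protein genes and 2 lower and 1 higher for the further noncoding hosts. Over all genes, 9.53% were called with the lower effect in parent cells and 7.32% with the higher. Between the lines under labelled DMSO, 11 ribosomal protein genes were lower and 7 higher in knockout cells, where all 10 hosts were lower. Over all genes that comparison called 20.4% lower and 19.6% higher.

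**Figure D5:**
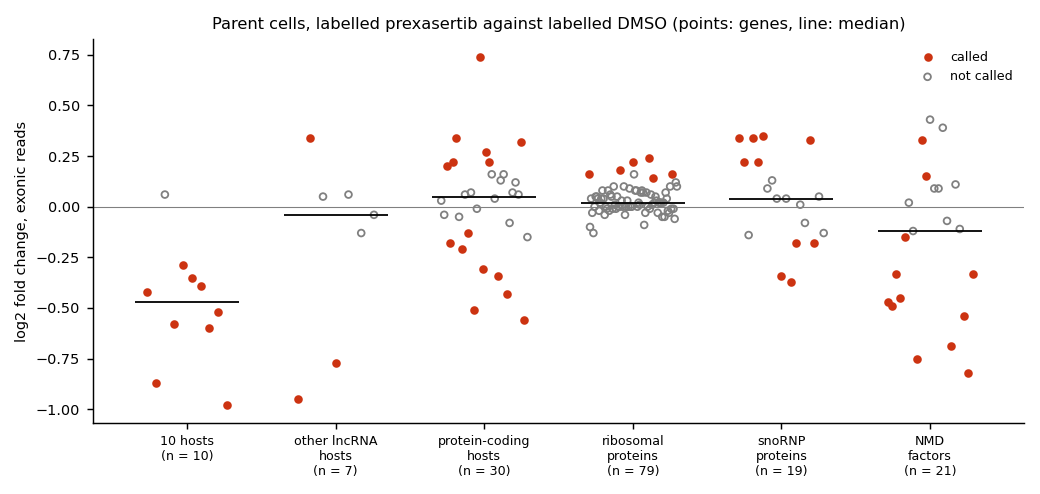
Log2 fold changes of exonic reads in parent cells, labelled prexasertib against labelled DMSO (y axis), for the hosts and the genes tested of 5 lists, with filled points for called genes and a line at the median. The hosts have a median of -0.47, the 79 ribosomal protein genes one of 0.02.

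A mean profile of the hosts over the 12 libraries, on centred log2 CPM, was highest in the parent libraries labelled DMSO (0.434 to 0.488). It was -0.149 to 0.038 in parent libraries labelled prexasertib, -0.209 to -0.133 in knockout libraries labelled DMSO and -0.27 to -0.226 in those labelled prexasertib. As parts of that profile, SNHG1 (r = 0.987), SNHG15 (0.985) and ZFAS1 (0.984) lay closest to it, SNHG7 (0.756) and SNHG3 (0.679) farthest. Among 9743 other genes whose log2 CPM averaged 3 or more, the 5 most like it by Pearson correlation over the 12 libraries were ZNF274, INTS6 and PSPC1 (each 0.991), TXNL4B and PRKRIP1 (each 0.99). A correlation over 0.9 was found for 648 of them. The libraries share their groups, so these correlations describe the pattern only. INTS6, a subunit of the Integrator complex, was at 118 to 122 CPM in parent libraries labelled DMSO and at 56.2 to 64.1 in those labelled prexasertib, and ZNF274, a zinc finger repressor, was at 42.2 to 44.9 against 19.3 to 23.7.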

How the data were processed

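Total RNA was sequenced as 12 paired-end libraries, per the labels' protocols. The submitters' processing notes name the build hg19, the trimmers Trimmomatic 0.39 and Trim Galore 0.6.2, the aligner STAR 2.5.4a, and Picard 2.9.2; the counter, annotation and strand setting are not given in the sources used here. The authors deposited per-gene read counts (exonic, intronic and unique to a gene) and TPM values, per the file headers. Unlisted genes were taken as 0, and 1 was added to deposited positions. Of 44183 features, 36 second copies from the pseudoautosomal part of chromosome Y were dropped.

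Tests of counts used edgeR 4.0.16 under R 4.3.3 (quasi-likelihood F test, robust, TMM, filterByExpr with a minimum count of 10, 4 group means, Benjamini-Hochberg adjustment over all genes tested). The ratio model used 24 columns (exonic and intronic reads of each library), a term per library and an intron term per group, on exonic library sizes. Values in brackets after a log2 change are its standard error and adjusted p. CPM use TMM-scaled exonic library sizes. DESeq2 1.42.0 and limma 3.58.1 (on log2 of TPM with a pseudocount of 1) served as alternatives. The tests were also run on simulated counts with the same spread for all genes. Those counts held no outlying library and no reads counted as both exonic and intronic, so they do not check the tests for such cases. Libraries within a group differed beyond sampling noise (4.54 to 37.98 for chi-square over its degrees of freedom).

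The hosts, the 5 lists and the rule for named genes (the 10 hosts, the snoRNA of highest mean CPM in each, 2 genes of smallest p per list in the parent comparison, 5 genes of most like profile) were chosen with earlier results of these data known. RCC1, MCMDC2, ZNFX1, TRNAU1AP, FAM69B, ZBTB37 and DANCR were added after their values were seen.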

Additional observations from a re-analysis of the deposited data

Results flagged for a closer look

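The difference between parent and knockout cells in the labelled prexasertib effect, tested as an interaction, was past the threshold for 7 hosts in exonic reads and for 7 in the ratio of intronic to exonic reads. For exonic reads, the log2 effect in the parent line minus the one in the knockout line was -0.40 for GAS5, -0.85 for SNHG1, -0.38 for SNHG5, -0.35 for SNHG6, -0.44 for SNHG12, -0.52 for SNHG15 and -0.85 for ZFAS1. For the ratio it was 0.48 for GAS5, 1.09 for SNHG1, 0.44 for SNHG5, 0.56 for SNHG8, 0.93 for SNHG12, 0.75 for SNHG15 and 1.22 for ZFAS1. Exonic reads are the denominator of the ratio, so its calls are not separate evidence from the exonic ones. The ratio calls of SNHG5 and SNHG8 were lost in 9 and 10 of 15 alternatives. With intronic columns on their own scaling factors 3 of the 7 hosts were called for the ratio. On whole-gene TPM, which includes intronic reads, the interaction was called for 2 hosts by limma, and ZFAS1 was at -0.07 (adjusted p = 0.62). In all these hosts the 3 parent libraries labelled DMSO lay apart from the other 9, with higher exonic CPM and a lower intronic share. How many of all genes show such a separation was not counted, so it only describes these values. With the library names in place of the record labels, each sign of the interaction values above turns.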

How the results depend on the processing

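The 9 hosts lower in parent cells stayed lower in all 23 alternatives, except SNHG6 on log2(TPM + 1) (-0.08, adjusted p = 0.31) and log2(exonic TPM + 1) (-0.15, 0.066); the second unit was added after seeing the data. Whole-gene TPM includes intronic reads, and ZFAS1 fell by 0.25 there. On the TPM scales the split of all genes moved from 4183 higher and 4191 lower in parent cells to 7699 and 1931 (exonic TPM 6364 and 2505), from 4515 and 4697 between lines under labelled DMSO to 10856 and 1387 (9197 and 1833; all-gene median 0.15), from 3349 and 3118 under labelled prexasertib to 6196 and 1147 (6358 and 1327), and from 1686 and 2197 in the interaction to 3037 and 767 (2905 and 1128). Whole-gene TPM in place of exonic reads changed the numbers of hosts called. They became 1 lower in knockout cells, and 1 higher and 4 lower between lines under labelled DMSO. Under labelled prexasertib they became 3 higher and 2 lower, and in the interaction 2 lower. With exonic TPM the counts that moved became 1 lower in knockout cells, 1 higher (SNHG7) between lines under labelled DMSO, and 3 higher and 2 lower under labelled prexasertib. Counts not listed changed less or not at all. Between lines under labelled DMSO, SNHG1, SNHG6, SNHG8 and SNHG15 were called lower in all 23 alternatives. Fitting only the groups compared gave 5 lower in knockout cells.

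Intronic counts with exonic library sizes became 1 higher and 1 lower (parent), 1 higher (lines, labelled DMSO), 4 lower (lines, labelled prexasertib) and 2 higher (interaction), and the split of all genes in parent cells became 5639 higher and 1605 lower, with a median of 0.20. With no low-count filter they became 1 higher (knockout), 2 lower (lines, labelled prexasertib) and 1 lower (interaction). With intronic columns on their own factors the ratio gave 1 lower in knockout cells and 3 higher in the interaction. Leaving out 1 library at a time gave 0 to 5 hosts lower in knockout cells for exonic reads. For intronic reads it gave 0 to 1 higher and 2 to 4 lower in parent cells, 1 to 4 lower in knockout cells, 0 to 1 higher and 2 to 5 lower between lines under labelled DMSO, 0 to 5 lower under labelled prexasertib, and 0 to 1 higher and 0 to 1 lower in the interaction. For the ratio it gave 0 to 1 lower in knockout cells and 0 to 1 lower between lines under labelled DMSO (SNHG3, without the first parent library labelled DMSO), and the interaction held 5 to 8 hosts.

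Signs turned for values near 0 and, on TPM, for a few others. On TPM, GAS5 was at 0.00 and SNHG7 at 0.20 between lines under labelled DMSO (exonic TPM 0.13), SNHG1 at 0.04 under labelled prexasertib and SNHG7 at 0.01 in the interaction. SNHG7 under labelled prexasertib was at -0.01 with a mean CPM of at least 1, at -0.03 with unique exonic reads and at 0.00 without short features, and SNHG15 in knockout cells at 0.00 unfiltered. Intronic reads in parent cells turned for GAS5 (0.02), SNHG1 (0.13), SNHG8 (0.15) and ZFAS1 (0.11) with exonic library sizes and for SNHG8 (0.01) unfiltered. SNHG6 intronic reads in knockout cells lay at 0.00 with DESeq2 size factors, unfiltered and with unique reads, and at -0.01 with exonic library sizes. The ratio of SNHG7 turned to -0.04 (parent) and -0.05 (lines, labelled DMSO) with unique reads and to -0.21 and -0.11 with own factors. Without single libraries the exonic ranges were -0.04 to 0.13 (SNHG3, parent), -0.06 to 0.02, -0.01 to 0.03 and -0.10 to 0.01 (SNHG1, SNHG15 and SNHG3, knockout), and 0.00 to 0.10, -0.05 to 0.04 and -0.04 to 0.07 (GAS5, SNHG7 and SNHG12, lines under labelled prexasertib). The intronic ranges were -0.20 to 0.17, -0.29 to 0.01 and -0.15 to 0.09 (SNHG1, GAS5 and SNHG8, parent) and -0.05 to 0.05 (SNHG6, knockout), and the ratio ranges of SNHG7 -0.03 to 0.02 (lines, labelled DMSO) and -0.04 to 0.02 (interaction). What made these signs turn was not tested, on the TPM scales or elsewhere.

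Deviations of same-numbered libraries correlated at -0.13 to 0.14, over 0.1 in 1 of 18 pairs. With 3 libraries a group, such correlations cannot exclude that the replicate numbers pair the libraries. A replicate block left the exonic counts of hosts at 9, 3, 10 and 6 lower in the first 4 comparisons and at 8 in the interaction, gave 1 lower host in the intronic interaction and moved the ratio interaction from 7 to 8 hosts. Over all genes, the block moved the exonic interaction from 1686 higher and 2197 lower to 1745 and 2211. The ratio interaction moved more, from 1420 higher and 76 lower to 2124 and 102. Between lines under labelled prexasertib, the ratio moved from 171 higher and 656 lower to 224 and 1230. Depth limits the intronic reads of SNHG1, SNHG8, SNHG12 and SNHG15 and the small snoRNA features most.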
